A study of Mus musculus with 5 samples.

Results

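Amino acid transporters of the mouse uterus were described from the 60 genes, of 28666 in the deposited count table, whose symbol begins with Slc1a, Slc3a, Slc6a, Slc7a, Slc36a, Slc38a or Slc43a followed by a number. The rule used names only and no measured value. It gave 7 genes of the Slc1a family, 2 of Slc3a, 17 of Slc6a, 15 of Slc7a, 5 of Slc36a, 11 of Slc38a and 3 of Slc43a. Slc7a6os and Slc36a3os share the start of a neighbouring gene's symbol and are not known as transporters. Each library was made from whole uterus of a pseudopregnant ICR female aged 6 to 8 weeks. The aged-SP group (2 libraries, replicates 1 and 4) had been caged with aged vasectomized males and the young-SP group (3 libraries, replicates 1, 2 and 4) with young adult vasectomized males, and uteri were taken 3.5 days after caging according to the labels, while the study's methods count from mating and give a lower number of days. Females of both groups thus received seminal plasma (SP) without sperm through mating, and unmated uterus was not analysed here. The males of both groups were C57BL/6 mice per the study's methods, a strain other than that of the females. The question was whether uterine RNA differed with the age of the male.

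Amino acids cross cell membranes through carriers that are grouped by sequence. Slc1a and Slc38a proteins couple uptake to the sodium gradient, Slc7a light chains exchange amino acids and mostly need a heavy chain of the Slc3a family to reach the membrane, Slc6a proteins carry neurotransmitters, taurine, creatine and neutral amino acids, and Slc36a and Slc43a proteins work by proton coupling or by facilitated diffusion. In the uterus before implantation such carriers supply the tissue and set the amino acid content of the luminal fluid in which the embryo lies, and several of them also report amino acid supply to the growth kinase complex mTORC1.

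Total counts were 15071914 to 16728601 per library, and the 60 genes took 26092 to 31057 counts, or 0.168% to 0.186%, of each. On the first principal component of the 500 most variable genes, which held 66.2% of their variance, young-SP replicate 1 (-9.43) lay between the aged-SP libraries (-43.7 and -25.5) and the other young-SP libraries (36.6 and 41.9). Markers of epithelium, glands, stroma, myometrium, endothelium and leukocytes were all present. The summed level of 9 stromal markers was 10625 to 11952 CPM (counts scaled to library size) in the aged-SP group and 14925 to 19255 in the young-SP group. Of the 9, 5 were lower at an edgeR unadjusted p under 0.05, beside 9.36% of all tested genes. The summed level of 9 gland markers was 3049 to 4266 CPM in the aged-SP group and 120 to 724 CPM in the young-SP group. Of these 9, 1 was higher and 2 lower at an edgeR unadjusted p under 0.05 (9.62% and 9.36% of all tested genes). Without the proteases Prss28 and Prss29 the other 7 gland markers summed to 152 to 367 CPM and 108 to 249 CPM. Epithelial markers overlapped between the groups (1549 to 1605 CPM against 1054 to 1988 CPM). In whole uterus, fewer cells of a type and less RNA per cell cannot be told apart.

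Of the 60 genes, 40 had enough counts for a test and 20 did not. The untested genes were Slc1a7, Slc3a1, Slc36a3, Slc36a3os, Slc38a3, Slc38a8, Slc6a3, Slc6a7, Slc6a12, Slc6a16, Slc6a19, Slc6a20a, Slc6a20b, Slc6a21, Slc7a3, Slc7a9, Slc7a10, Slc7a13, Slc7a14 and Slc7a15. None of these had a mean above 0.209 FPKM (the deposited level, scaled to gene length and library total), and 7 had at most 3 counts in every library. The highest count was 26, for the cationic amino acid transporter Slc7a3 in young-SP replicate 1. Slc6a20a, a carrier of proline, had 12 counts in aged-SP replicate 1 and 0 in the other 4 libraries.

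Transport of small neutral amino acids and glutamine stood at the head of the list. Compared per length, Slc38a2, a sodium-coupled carrier of alanine, serine and glutamine that cells raise when amino acids are scarce, had the highest mean (55.8 ± 5.22 FPKM, SD over 5 libraries). The glutamine exchanger Slc1a5 followed with a mean of 33.6 FPKM (24.4 to 49.2 FPKM), and the ranges of these genes over the libraries did not overlap. The taurine transporter Slc6a6 (23.8 ± 3.06 FPKM) and the heavy chain Slc3a2 (23.3 ± 2.76 FPKM) came next, and their ranges overlapped each other and that of Slc1a5. From the second to the tenth gene every neighbouring pair overlapped, in the order Slc38a10 (19.0 FPKM), Slc38a1 (17.2 FPKM), the creatine transporter Slc6a8 (12.4 FPKM), Slc43a3 (11.0 FPKM), the noradrenaline transporter Slc6a2 (11.0 FPKM) and the glutamate transporter Slc1a1 (10.3 FPKM). These 10 genes had a mean above 10 FPKM, 21 lay between 1 and 10 FPKM and 29 below 1 FPKM. The first 3 genes held 35.3% of the FPKM summed over the 60.

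**Figure D1:**
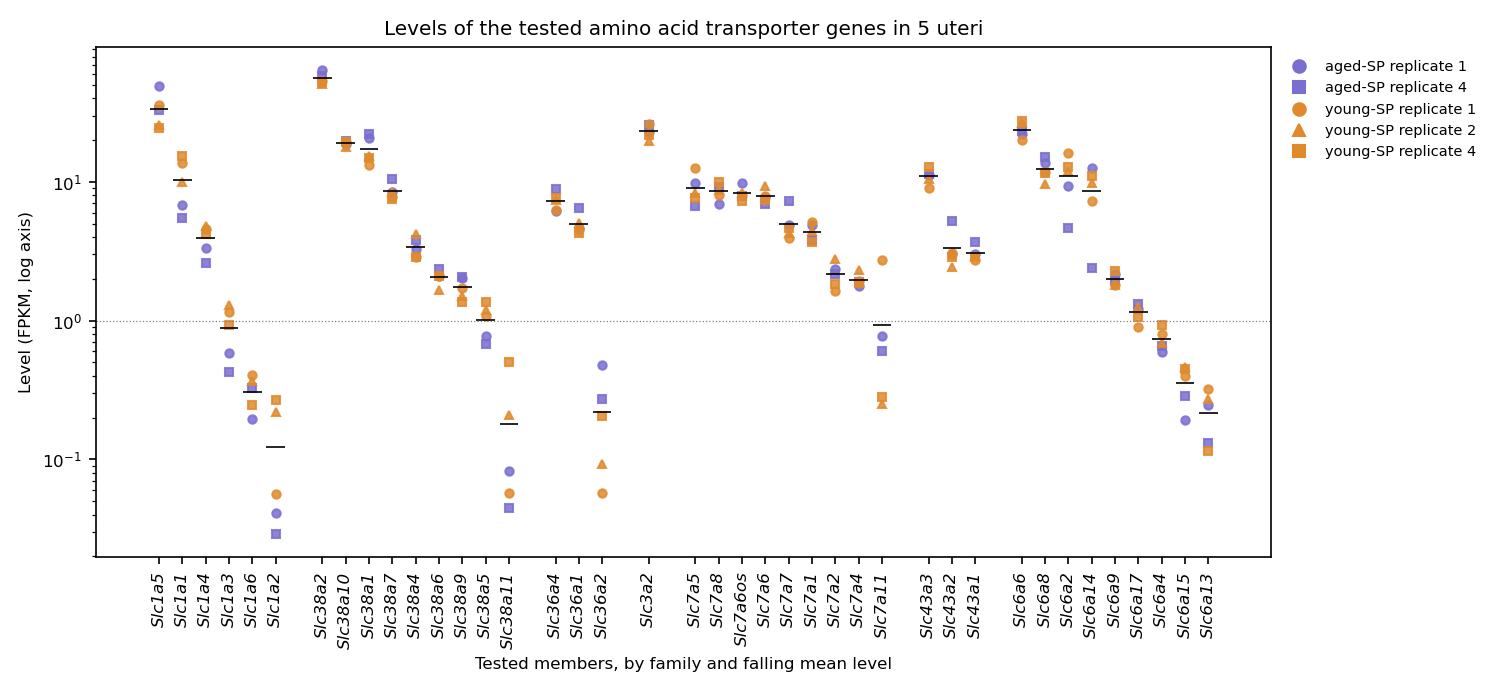
Deposited FPKM (logarithmic axis) of the 40 tested transporter genes by family and falling mean, with a point for each library (purple, aged-SP; orange, young-SP), a bar for the mean and a dotted line at 1 FPKM. Slc38a2 stands at the top with a mean of 55.8 FPKM, and the points of Slc7a11, Slc1a2 and Slc38a11 spread widest around their means.

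By family, Slc38a held 34.0% of the summed FPKM, Slc6a 18.9%, Slc1a 15.3%, Slc7a 15.1%, Slc3a 7.33%, Slc43a 5.42% and Slc36a 3.95%. A few genes carried most families. Slc3a2 made up 99.1% of the Slc3a sum, Slc1a5 68.4% of Slc1a, Slc43a3 63.3% of Slc43a, Slc36a4 57.3% of Slc36a and Slc38a2 51.1% of Slc38a. In Slc7a the leading gene, Slc7a5, held 18.5%. The Slc38a sum was 120 and 119 FPKM in the aged-SP libraries and 101, 102 and 103 FPKM in the young-SP libraries, so that the groups did not overlap. The Slc1a sum did overlap, at 60.2 and 42.2 FPKM against 55.8, 42.2 and 45.3 FPKM.

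Between the groups no transporter gene was called. A call required an edgeR adjusted p under 0.05 over all 17013 tested genes and a log2 fold change (aged-SP over young-SP) beyond 1 in either direction, which 0.147% of all tested genes met. In edgeR 0 of 40 transporter genes were called and 12 had an unadjusted p under 0.05, which is 30.0% of them against 19.0% of all tested genes. The count was 12 of 40 without young-SP replicate 1 (30.0% against 22.7% of all genes). It was 6 of 39 without young-SP replicate 2 (15.4% against 12.6%) and 6 of 39 without young-SP replicate 4 (15.4% against 14.8%). Refits without an aged-SP library leave 1 in that group, and their counts are not given. With the replicate number as a block it was 6 of 40 (against 14.8% of all genes). Of the 12 genes in the fit of all libraries, 5 had higher values with aged SP (background 9.62%) and 7 had lower values (background 9.36%). DESeq2 called 2, Slc1a1 and Slc1a3, against 3.6% of all genes in its test, and 4 had a DESeq2 adjusted p under 0.05 (background 7.58%), namely these and Slc38a1 and Slc6a2. limma-voom called 0. CPM did not overlap between the groups for 16 of the 40 genes, a share to be read beside the 38.8% of all tested genes without overlap, with 8 higher (background 19.5%) and 8 lower (background 19.3%). The median log2 fold change was 0.06, beside 0.01 over all tested genes, and single genes ran from -2.33 to 1.68. Without young-SP replicate 1 edgeR called 1 transporter gene, Slc1a2 (log2 fold change -2.77, adjusted p = 0.0314). In that refit 578 of all 16745 tested genes were called, beside 25 of 17013 in the fit of all libraries.

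**Figure D2:**
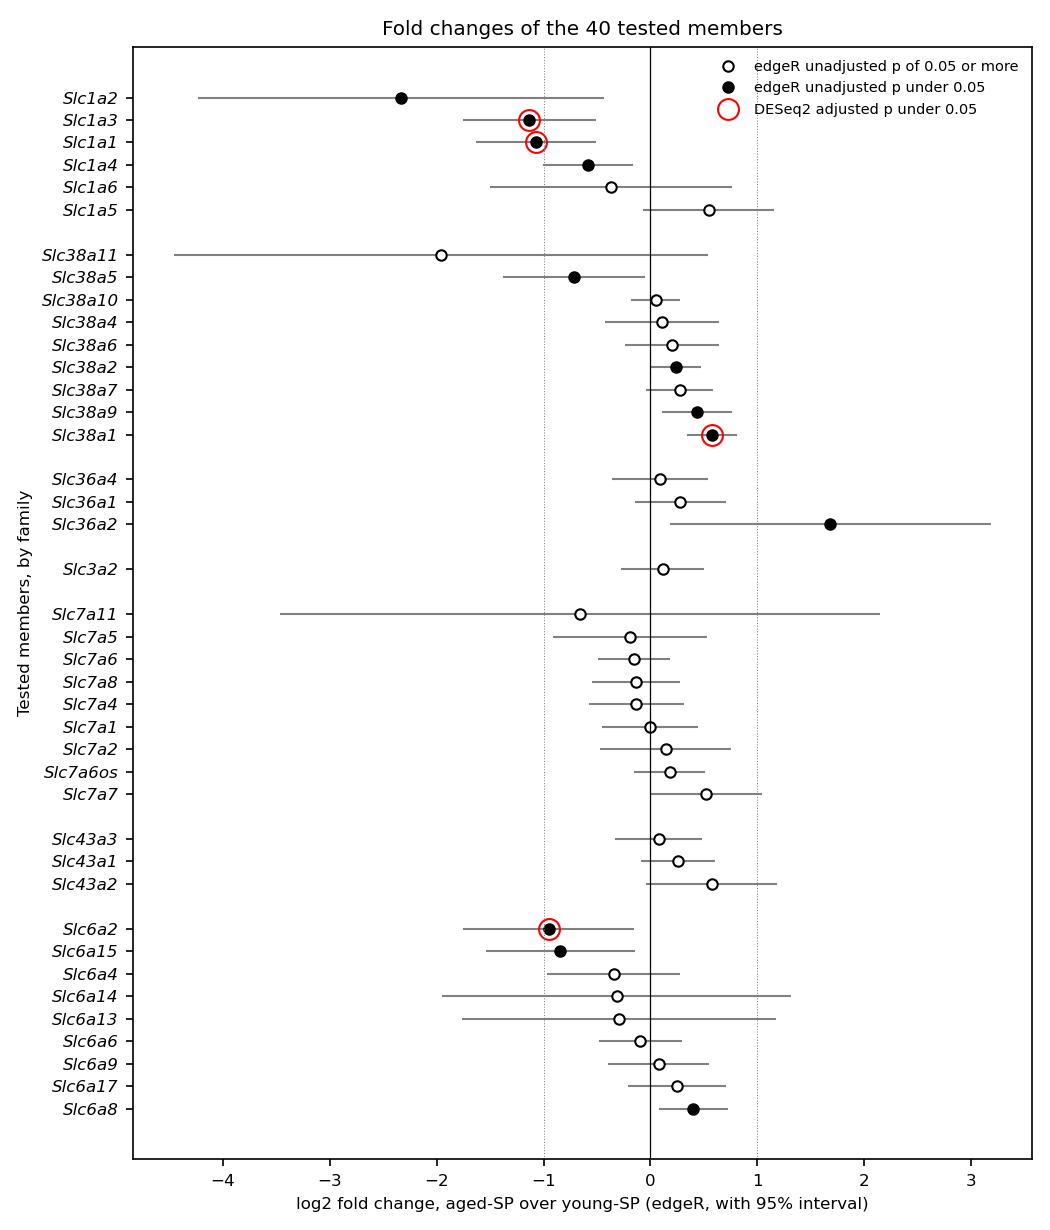
Log2 fold change (aged-SP over young-SP) of the 40 tested transporter genes by family, with 95% confidence intervals from the edgeR fit, filled points for an edgeR unadjusted p under 0.05 and red rings for a DESeq2 adjusted p under 0.05. Slc1a1, Slc1a2, Slc1a3 and Slc1a4 lie to the left of zero and Slc38a1, Slc38a9, Slc6a8 and Slc36a2 to the right, while every Slc7a interval covers zero.

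In the Slc1a family 4 genes lay lower in the aged-SP group. Slc1a1, Slc1a2 and Slc1a3 take up glutamate and aspartate, and Slc1a4 exchanges alanine, serine and cysteine. For each the aged-SP libraries lay below all young-SP libraries, as for 19.3% of all tested genes. The family median was -0.83. Of 6 tested Slc1a genes, 4 were lower at an edgeR unadjusted p under 0.05 (9.36% of all tested genes) and 0 were higher (9.62%). None of them passed the edgeR threshold after adjustment, and the groups overlapped for the glutamate carrier Slc1a6 (log2 fold change -0.37). The RefSeq promoter windows of 3 of these genes, from 250 bases before to 50 after the start (GRCm38.p6, 300 bases, 5′ to 3′ on the gene's strand), are shown so that the carriers that were lower together can be set side by side, with that of the cystine carrier Slc7a11 for comparison, which was chosen after its values were seen. Capitals mark the amino acid response element core TGATGNAA or its reverse complement. The windows lie at chr19:28834885-28835184 (plus strand), chr15:8710758-8711057, chr11:20332664-20332963 and chr3:50443564-50443863 (all minus strand).
Slc1a1: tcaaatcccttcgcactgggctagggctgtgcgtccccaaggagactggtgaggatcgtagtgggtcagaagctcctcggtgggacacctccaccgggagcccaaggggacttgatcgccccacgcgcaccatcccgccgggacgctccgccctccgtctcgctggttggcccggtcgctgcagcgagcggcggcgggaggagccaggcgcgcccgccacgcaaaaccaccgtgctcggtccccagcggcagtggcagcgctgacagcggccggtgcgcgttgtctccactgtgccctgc
Slc1a3: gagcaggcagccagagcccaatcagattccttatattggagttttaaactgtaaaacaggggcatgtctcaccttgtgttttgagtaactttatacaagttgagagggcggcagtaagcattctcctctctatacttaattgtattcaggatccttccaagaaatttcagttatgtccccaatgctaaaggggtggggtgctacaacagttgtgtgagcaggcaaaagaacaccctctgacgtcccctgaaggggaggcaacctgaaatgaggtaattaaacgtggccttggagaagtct
Slc1a4: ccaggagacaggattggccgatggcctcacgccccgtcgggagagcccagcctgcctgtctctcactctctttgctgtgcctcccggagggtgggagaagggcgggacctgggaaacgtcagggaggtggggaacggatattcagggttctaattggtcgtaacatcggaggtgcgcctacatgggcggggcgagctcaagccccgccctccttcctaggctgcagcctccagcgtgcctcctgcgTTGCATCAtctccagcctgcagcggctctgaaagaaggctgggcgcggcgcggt
Slc7a11: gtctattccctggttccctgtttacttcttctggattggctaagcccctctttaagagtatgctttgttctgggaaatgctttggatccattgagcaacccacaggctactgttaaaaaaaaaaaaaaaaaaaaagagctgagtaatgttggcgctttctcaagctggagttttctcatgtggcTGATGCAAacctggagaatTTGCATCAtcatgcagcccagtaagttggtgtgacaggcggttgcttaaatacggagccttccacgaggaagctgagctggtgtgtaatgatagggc

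The core occurred in neither the Slc1a1 nor the Slc1a3 window, whose GC content was 70.3% and 45.3%. The window of Slc1a2, which was also lower but is not shown, did not hold it either. Slc1a4 (65.0% GC) held it in reverse at position -4 and Slc7a11 (44.7% GC) held it forward at -66 and in reverse at -47, counted from the start. Promoter windows were found for 45 of the 60 genes, 65 windows in all, and 5 of the 65 (those of Slc1a4, Slc7a11, Slc7a7 and the untested Slc6a21) held the core on either strand, compared with 3.97% of 32851 windows of all genes. The Slc7a7 windows among them overlap and share a match, which is thus counted more than once. Of the other letters searched on both strands, the antioxidant response element core TGACNNNGC was in 10 of the 65 windows, of 8 genes (12.4% of all windows) and the palindromic estrogen response element in 0 of the 65 (0.07% of all windows). Overlapping windows of Slc7a6 likewise share a match of the antioxidant core. No gene held both cores. These are matches of letters only.

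Slc1a1 (chr19:28835049-28913960, GRCm38) measured 42.2 and 34.2 CPM in the aged-SP libraries and 85.3, 60.3 and 94.8 CPM in the young-SP libraries. The groups did not overlap, and the mean was 38.2 ± 5.67 CPM (SD, n = 2) against 80.2 ± 17.8 CPM (SD, n = 3). The edgeR log2 fold change was -1.07 ± 0.22 (SE, adjusted p = 0.107), with a 95% interval from -1.63 to -0.51, and the DESeq2 adjusted p was 0.000927. The gene 4430402I18Rik on the opposite strand overlaps 31.9% of the exon bases of Slc1a1, and the libraries do not mark the strand. That gene was measured at 0.543 and 0.894 CPM against 0.625 to 1.53 CPM.

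Slc1a3, known from astrocytes (chr15:8634124-8710764), measured 5.07 and 3.64 CPM in the aged-SP group and 9.996, 10.7 and 7.93 CPM in the young-SP group. Both aged-SP values lay under the lowest young-SP value, and the log2 fold change was -1.13 ± 0.25 (SE; edgeR adjusted p = 0.114, DESeq2 adjusted p = 0.00599). Slc1a4 (chr11:20302180-20332713) measured 13.3 and 10.3 CPM against 18.1, 18.4 and 16.7 CPM, a log2 fold change of -0.59 ± 0.17 (edgeR adjusted p = 0.167). Slc1a2, the other astrocyte glutamate carrier, was low in all libraries, at 0.543 and 0.383 CPM against 0.750, 2.83 and 3.53 CPM. Its young-SP replicate 1 lay near the aged-SP values, and its log2 fold change of -2.33 ± 0.76 (edgeR adjusted p = 0.201) rested on young-SP replicates 2 and 4.

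Slc1a5, the most abundant gene of the family, did not follow them. It measured 207 and 139 CPM in the aged-SP group and 150, 104 and 102 CPM in the young-SP group, so that the groups overlapped, with a log2 fold change of 0.54 (95% interval -0.07 to 1.16, edgeR adjusted p = 0.310). Slc1a6, best known from the cerebellum, stayed between 0.423 and 0.875 CPM in all libraries. The stromal marker sum lay in the same direction as Slc1a1, Slc1a3 and Slc1a4 (10625 to 11952 CPM against 14925 to 19255 CPM), and its part in the result was not tested. Markers of neurons and glia summed to 10.9 to 11.4 CPM in the aged-SP group and 9.47 to 13.2 CPM in the young-SP group, where 6 of 10 markers passed the filter on low counts.

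**Figure D3:**
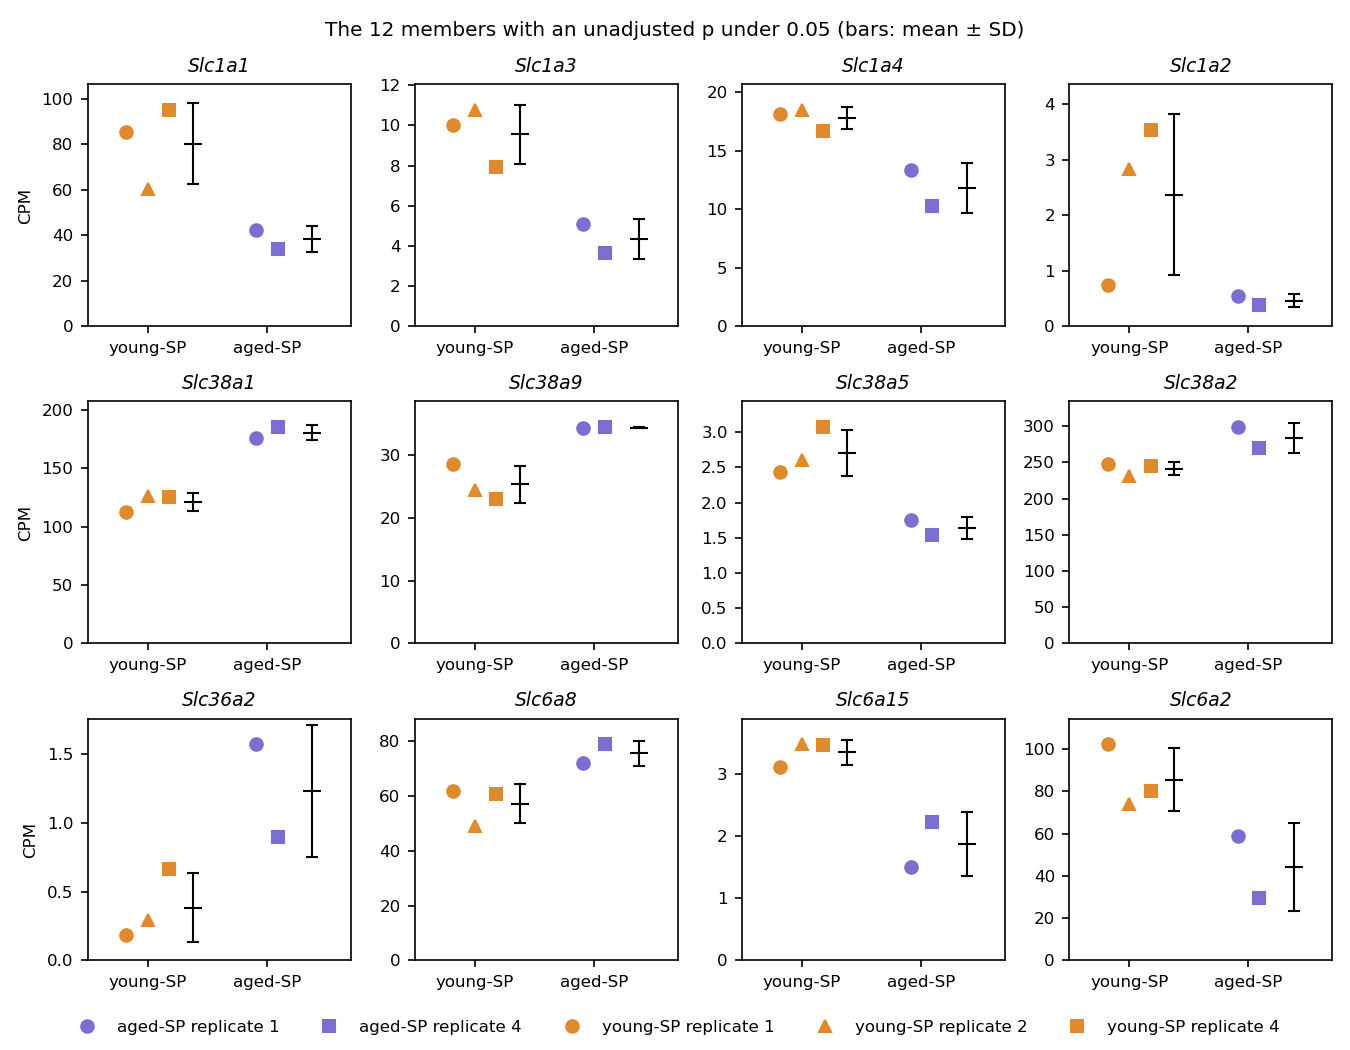
CPM of the 12 transporter genes with an edgeR unadjusted p under 0.05, a panel for each gene, with a point for each library and the mean with its SD beside each group. In all 12 panels both aged-SP points lie on the same side of the 3 young-SP points, which choosing the genes by this p made likely beforehand. Of all tested genes 38.8% did not overlap between the groups.

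Among the Slc38a carriers, 3 genes were higher in the aged-SP group and 1 lower at an edgeR unadjusted p under 0.05, of 9 tested, with a family median of 0.20. Over all tested genes 9.62% were higher and 9.36% lower at that p. Slc38a1, a sodium-coupled carrier of glutamine and other neutral amino acids, gave the smallest adjusted p of all transporter genes. It measured 176 and 185 CPM in the aged-SP group and 112, 126 and 125 CPM in the young-SP group. The groups were far apart relative to their spread (180 ± 6.55 CPM, n = 2, against 121 ± 7.70 CPM, n = 3), and the log2 fold change was 0.57 ± 0.09 (SE; edgeR adjusted p = 0.0766, DESeq2 adjusted p = 0.000253). Its fold of 1.49 lay below the size required for a call.

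Slc38a2 measured 298 and 269 CPM against 248, 231 and 245 CPM, a log2 fold change of 0.23 ± 0.09 (edgeR adjusted p = 0.262). Slc38a9, which senses arginine at the lysosome for mTORC1, measured 34.3 and 34.4 CPM against 28.7, 24.5 and 23.0 CPM, a log2 fold change of 0.44 ± 0.13 (edgeR adjusted p = 0.177). The lysosomal glutamine exporter Slc38a7, named after its values were seen, also did not overlap between the groups (35.4 and 43.8 CPM against 32.5, 34.4 and 31.4 CPM, log2 fold change 0.27, edgeR adjusted p = 0.320). Slc38a5, a carrier that can also release glutamine, lay in the other direction at 1.75 and 1.53 CPM against 2.44, 2.60 and 3.07 CPM, a log2 fold change of -0.71 ± 0.27 (edgeR adjusted p = 0.240).

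Slc38a10 overlapped between the groups, with 122 and 127 CPM against 125, 112 and 125 CPM and a 95% interval of the log2 fold change from -0.18 to 0.28. Slc38a4 (0.11) and Slc38a6 (0.20) had small log2 fold changes with overlapping groups. For Slc38a6, 69.9% of the 50-base stretches of its longest protein-coding transcript also occur in other genes, so that some of its reads may be shared. This transcript has 3927 bases, and the counted gene length is 7783 bases. Slc38a11 was low and varied over the young-SP libraries (0.250 and 0.886 CPM in replicates 1 and 2, and above both in replicate 4), and its log2 fold change was -1.96 with a 95% interval from -4.45 to 0.54. Slc38a1 (chr15:96571418-96642913), Slc38a2 (chr15:96687394-96699698) and Slc38a4 (chr15:96994823-97055956) lie next to each other, and their log2 fold changes were 0.57, 0.23 and 0.11. The gland marker sum, carried by Prss28 and Prss29, lay in the same direction as Slc38a1, Slc38a2 and Slc38a9 (3049 to 4266 CPM against 120 to 724 CPM). Single gland markers went both ways, with 5 log2 fold changes above zero and 4 below. Their part in the result was not tested.

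Neither the heavy chain Slc3a2 nor any tested light chain had an edgeR unadjusted p under 0.05. Slc3a2 measured 81.6 and 90.7 CPM in the aged-SP libraries and 93.6, 67.8 and 77.7 CPM in the young-SP libraries, with a 95% interval of the log2 fold change from -0.28 to 0.50 (edgeR adjusted p = 0.733). The other heavy chain, Slc3a1, had 19, 3, 5, 3 and 9 counts and was not tested. Slc3a1 shares 26.5% of its exon bases with Prepl, which was measured at 36.7 to 50.3 CPM. The 9 tested Slc7a genes had a median log2 fold change of -0.13. Slc7a5, the light chain for leucine and other large neutral amino acids, measured 36.8 and 24.8 CPM against 46.9, 30.1 and 28.4 CPM (log2 fold change -0.19, 95% interval -0.91 to 0.53). Slc7a8, which carries similar substrates, measured 35.1 and 46.3 CPM against 40.5, 42.8 and 50.5 CPM (log2 fold change -0.13, 95% interval -0.54 to 0.28).

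The cationic amino acid transporter Slc7a1, through which cells take up arginine, had the log2 fold change closest to zero of the family (-0.01, 95% interval -0.45 to 0.44). Slc7a2, Slc7a4, Slc7a6 and Slc7a6os had log2 fold changes of 0.14, -0.13, -0.15 and 0.18. Slc7a7, the light chain that exports cationic amino acids, measured 16.3 and 24.3 CPM against 13.1, 13.8 and 15.6 CPM, a log2 fold change of 0.52 (edgeR adjusted p = 0.264), and was named after its values were seen. Of the exon bases of Slc7a7, 6.998% overlap Oxa1l.

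Slc7a11, which takes up cystine in exchange for glutamate and so feeds glutathione synthesis, varied more within the young-SP group than between the groups. It measured 10.9 and 8.37 CPM in the aged-SP libraries, 38.3 CPM in young-SP replicate 1, and 3.42 and 3.93 CPM in young-SP replicates 2 and 4, from counts of 181, 131, 613, 58 and 59. The log2 fold change was -0.66 with a 95% interval from -3.46 to 2.15 (edgeR adjusted p = 0.788). Without young-SP replicate 1 the sign turned, with a log2 fold change of 1.38 (edgeR unadjusted p = 0.00245). Slc1a5 and Slc7a5 were also highest, among young-SP libraries, in replicate 1 (150 and 46.9 CPM).

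In the Slc6a family 1 gene was higher and 2 lower at an edgeR unadjusted p under 0.05, of 9 tested, beside 9.62% higher and 9.36% lower over all tested genes. The family median was -0.29. Slc6a8, which takes up creatine, measured 72.2 and 78.8 CPM in the aged-SP group and 61.7, 49.2 and 60.9 CPM in the young-SP group, without overlap, a log2 fold change of 0.40 ± 0.13 (SE, edgeR adjusted p = 0.198). Slc6a2, which returns noradrenaline to nerve endings and other cells, measured 59.0 and 29.5 CPM against 102, 74.1 and 80.3 CPM. Its log2 fold change was -0.95 ± 0.32 (edgeR adjusted p = 0.211, DESeq2 adjusted p = 0.0476), and the gap between its aged-SP libraries was wider than the gap between the groups. Slc6a15, a carrier of branched-chain amino acids and proline, measured 1.51 and 2.24 CPM against 3.12, 3.48 and 3.47 CPM, a log2 fold change of -0.84 ± 0.28 (edgeR adjusted p = 0.208).

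The taurine transporter Slc6a6, the most abundant of the family, measured 190 and 198 CPM against 169, 219 and 232 CPM, with a 95% interval of the log2 fold change from -0.48 to 0.29. Slc6a14, an epithelial carrier with a broad range of neutral and cationic amino acids, was named after its values were seen. It measured 43.4 CPM in aged-SP replicate 1 and 8.18 CPM in aged-SP replicate 4, while the young-SP libraries lay between them at 25.1, 33.2 and 38.1 CPM. Its log2 fold change was -1.98 without aged-SP replicate 1 and 0.43 without aged-SP replicate 4. The serotonin transporter Slc6a4, the GABA transporter Slc6a13, the glycine transporter Slc6a9 and the neuronal carrier Slc6a17 had log2 fold changes of -0.34, -0.29, 0.08 and 0.25.

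Of the proton-coupled Slc36a carriers, Slc36a2 was higher at an edgeR unadjusted p under 0.05 and was low throughout, at 1.57 and 0.894 CPM in the aged-SP group and 0.187, 0.295 and 0.667 CPM in the young-SP group. Its log2 fold change was the highest of the 40 genes (1.68 ± 0.60, edgeR adjusted p = 0.229), and its neighbour Slc36a1 on chromosome 11 had 0.28. Slc36a1, a carrier of the lysosomal membrane, measured 26.4 and 36.4 CPM against 25.5, 28.0 and 24.2 CPM, and Slc36a4 40.4 and 58.1 CPM against 41.4, 47.6 and 50.1 CPM. None of the 3 Slc43a genes had an edgeR unadjusted p under 0.05. Slc43a2, a carrier of large neutral amino acids, measured 30.8 and 52.3 CPM against 30.9, 24.0 and 28.9 CPM (log2 fold change 0.57, edgeR adjusted p = 0.291), and only aged-SP replicate 4 stood above the others. Slc43a3, known as a carrier of purine bases, measured 50.6 and 50.7 CPM against 40.7, 45.9 and 57.8 CPM, and the related Slc43a1 had a log2 fold change of 0.26.

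The CPM of the 12 genes did not overlap between the groups, so leaving out a library could hardly turn their sign. When each library was left out in turn, the genes kept it in every refit, which therefore adds no support. The log2 fold change ran from -1.24 to -0.93 for Slc1a1, from -1.39 to -0.91 for Slc1a3 and from 0.51 to 0.61 for Slc38a1. For Slc1a4 it ran from -0.79 to -0.41, the latter without aged-SP replicate 4. Slc6a2 moved from -1.54 without aged-SP replicate 1 to -0.54 without aged-SP replicate 4. With 1 aged-SP library left, its spread is assumed to be that of the young-SP group.

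**Figure D4:**
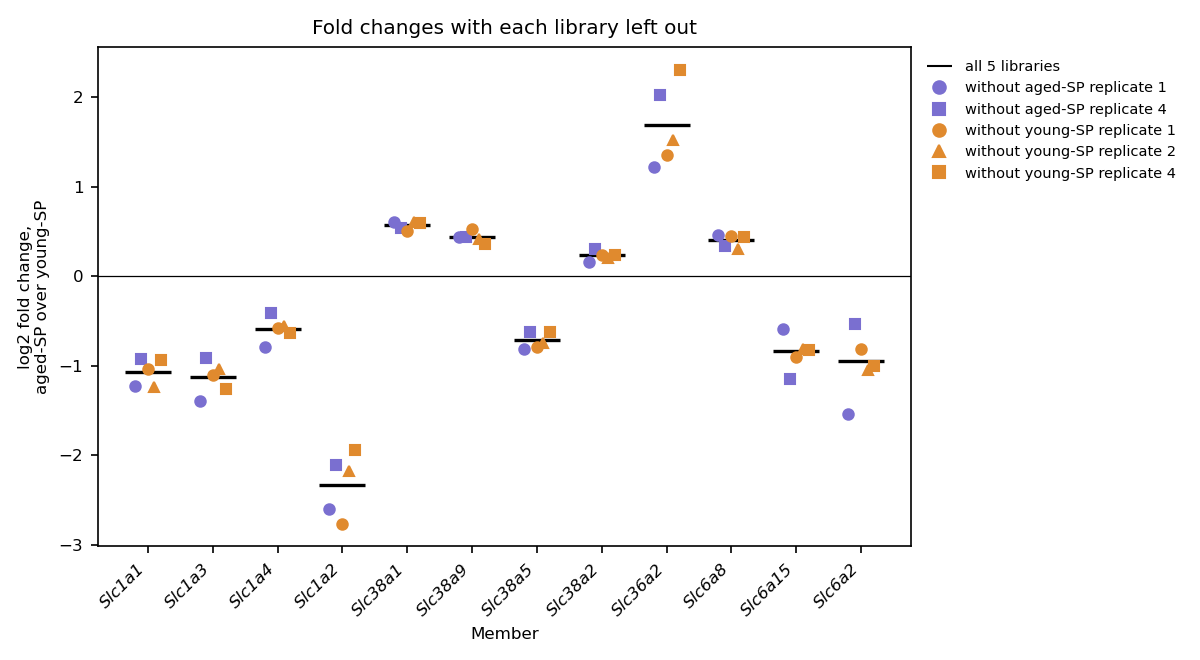
Log2 fold change (aged-SP over young-SP) of the 12 genes with an edgeR unadjusted p under 0.05, from all 5 libraries (bar) and from the 5 refits that each leave out a library (points). All points of a gene stay on its side of zero, which groups without overlap in CPM all but fix in advance. The points of Slc38a1 lie between 0.51 and 0.61 and those of Slc6a2 between -1.54 and -0.54.

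Other genes of amino acid handling were counted in 5 lists. Of 132 tested genes on them edgeR called 0 and DESeq2 called 11, beside 3.6% of all genes in the DESeq2 test. An edgeR unadjusted p under 0.05 was found for 40 (30.3%), beside 19.0% of all tested genes. Of these, 14 had higher levels in aged-SP uteri (9.62% of all tested genes) and 26 had lower levels (9.36%). The amino acid response through the kinase GCN2 and the factor ATF4 held 28 tested genes, of which 3 were higher and 10 lower at that p, with a median of -0.17. Mthfd2, a mitochondrial enzyme of folate metabolism, measured 8.99 and 6.20 CPM in the aged-SP group and 31.4, 40.9 and 33.7 CPM in the young-SP group (log2 fold change -2.22, edgeR adjusted p = 0.0552). The tryptophan tRNA ligase Wars had a log2 fold change of -0.68 (edgeR adjusted p = 0.0734). The levels of Mthfd2 and Wars did not overlap between the groups, as for 38.8% of all tested genes.

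Amino acid metabolism held 45 tested genes, of which 2 were higher and 10 lower at an edgeR unadjusted p under 0.05, with a median of -0.11. Over all tested genes 9.62% were higher and 9.36% lower at that p, to be read beside the lists that follow as well. Abat, which breaks down GABA, and Asl of the urea cycle had log2 fold changes of -0.93 and -1.01 (edgeR adjusted p = 0.0674 and 0.0708). Among the 38 genes of amino acid sensing to mTORC1, 5 were higher and 5 lower, with Fnip1 (0.47) and Fnip2 (0.79), partners of folliculin, giving the smallest edgeR adjusted p values (0.0945 and 0.109). Of 14 mitochondrial amino acid carriers 1 was higher and 2 lower. Slc25a48 measured 42.1 and 86.4 CPM against 211, 240 and 310 CPM (log2 fold change -1.98, edgeR adjusted p = 0.0867), and the serine carrier family gene Sfxn3 had 0.34 (edgeR adjusted p = 0.129). Of 10 transporter partners and carriers outside the families, 3 were higher and 1 lower. The lysosomal cystine exporter Ctns had a log2 fold change of 0.54 (edgeR adjusted p = 0.163).

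**Figure D5:**
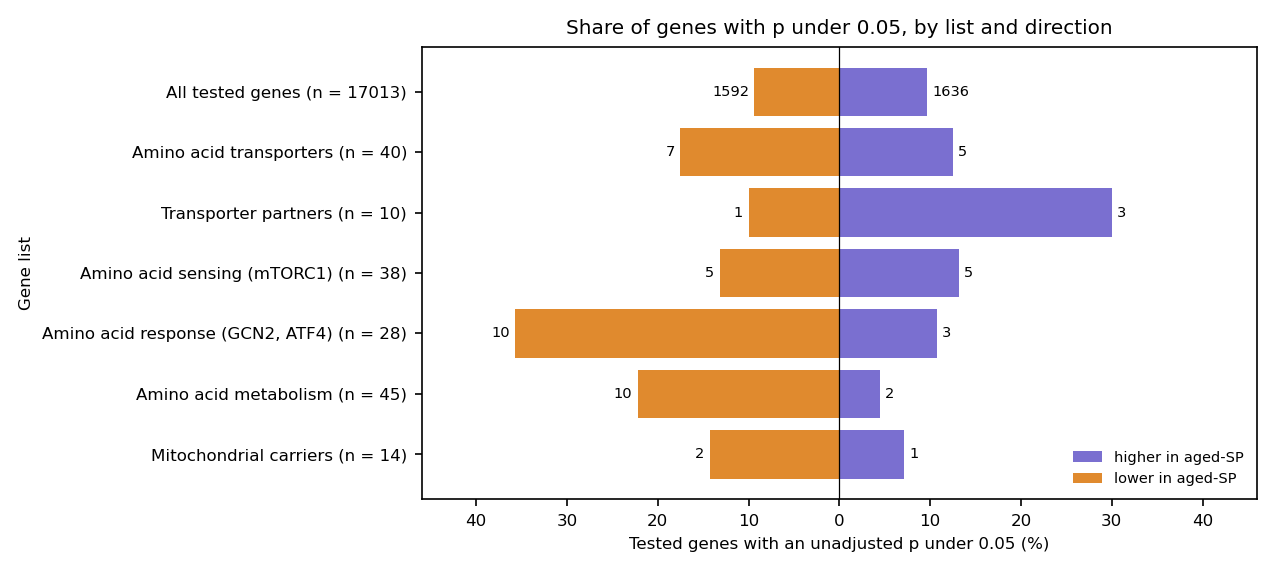
Share (%) of the tested genes with an edgeR unadjusted p under 0.05 in the 5 lists of amino acid handling, the 40 transporter genes and all 17013 tested genes, to the right for higher and to the left for lower levels in aged-SP uteri, with the number of genes at each bar. The left bars of the GCN2 and ATF4 response and of amino acid metabolism stand for 10 genes each, those to the right for 3 and 2.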

How the data were processed

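RNA of 5 whole uteri was analysed, 2 of the aged-SP and 3 of the young-SP group, as the sample titles give them. The labels do not say whether further animals were pooled, so p-values measure the spread between these libraries. Per the labels and the study's methods, TRIzol RNA went into a library kit that does not mark the strand, the authors aligned reads with HISAT2 2.1.0, and the tools HTSeq 0.6.0 and Bowtie2 2.2.3 are named without a role. The authors deposited unnormalized counts per gene and, for each library, FPKM values, which were checked to be these counts per gene length and library total. The signal column of the deposited table holds the authors' mean over libraries after DESeq2 scaling, and its fold (ratio), log2 fold change and p-value columns hold the authors' own DESeq2 comparison. None of these was used. 0 columns of sample values were left unused.

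Counts were fitted with edgeR 4.0.16 (filterByExpr, TMM, glmQLFit, glmQLFTest) in R 4.3.3 on the whole table, with Benjamini-Hochberg adjustment over 17013 tested genes, and CPM are counts scaled to library size after TMM. The median fold change and the common biological coefficient of variation of 25.1% come from this fit, and the script was tested on simulated data. Total counts were 15071914 to 16728601, which bounds the precision of low genes. The floor of 3 counts per library only marked genes near zero and entered no test or interval. Deposited FPKM served for levels between genes. Alternatives were DESeq2 1.42.0, limma-voom (limma 3.58.1), other scalings and filters, a replicate block and leaving out each library.

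Deviations from the group means correlated at 0.152 and 0.136 for the libraries that share replicate numbers 1 and 4. These are 2 pairs, so the numbers were not taken to pair the females. Exon overlap and shared 50-base stretches were taken from GENCODE M21 (GRCm38), and promoters from RefSeq (GRCm38.p6). Named genes were those with an edgeR unadjusted p or a DESeq2 adjusted p under 0.05, the 2 of each family with the highest mean FPKM, both heavy chains, and in each other list the 2 with the smallest edgeR p, except a gene that is not reported here. Genes, lists and thresholds were chosen with earlier results of these data known. A further young-SP library that the study set aside was not analysed here.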

Additional observations from a re-analysis of the deposited data

How the results depend on the processing

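No transporter gene was called with any scaling or filter, with the replicate block or with an adjusted p under 0.05 alone in edgeR (0). None was called in limma-voom (0), while DESeq2 called 2 (3.6% of all genes). Leaving out each young-SP library gave 0 to 1, and without young-SP replicate 1, which gave the 1, 578 of all 16745 tested genes were called. The count with an unadjusted p under 0.05, beside the share of all genes in brackets, was 12 (19.0%), 12 with DESeq2 (18.1%) and 11 with limma-voom (18.5%). It was 11 with DESeq2 size factors (18.9%) and with library size alone (18.5%). Without a filter it was 15 of 60 (12.8%), and with at least 10 counts per library 10 of 35 (19.4%). With the replicate block it was 6 (14.8%), and 6 to 12 when each young-SP library was left out (12.6% to 22.7%). It was 3 at an unadjusted p under 0.01. With the replicate block the median log2 fold change of the transporter genes was 0.0044, and it ran from -0.0097 to 0.058 when each library was left out. The other alternatives kept it between 0.05 and 0.08. Of the 12 genes with an edgeR unadjusted p under 0.05, 5 kept it with the block. Over all 17013 tested genes edgeR called 2 with the block and 25 without it.

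Of 473 refits of the 40 tested genes, 453 kept their direction and side of the threshold, 3 passed it (Slc1a1 and Slc1a3 in DESeq2, Slc1a2 without young-SP replicate 1) and 17 turned sign, all in genes whose 95% interval covered zero. Slc7a11 turned with limma-voom (0.26) and Slc38a10 with the replicate block (-0.0036). Without aged-SP replicate 1, Slc6a9 (-0.028, range over the left-out libraries -0.028 to 0.19) and Slc7a8 (0.052, -0.35 to 0.052) turned. Without aged-SP replicate 4, Slc36a4 (-0.20, -0.20 to 0.32), Slc38a4 (-0.0012, -0.0012 to 0.29), Slc6a13 (0.085, -0.82 to 0.085), Slc6a14 (0.43, -1.98 to 0.43), Slc7a1 (0.16, -0.20 to 0.16) and Slc7a5 (0.068, -0.51 to 0.068) turned. Without young-SP replicate 1, Slc36a4 (-0.0021), Slc7a1 (0.11), Slc7a5 (0.065), Slc7a11 (1.38, -1.13 to 1.38), Slc7a2 (-0.014, -0.014 to 0.39) and Slc43a3 (-0.045, -0.045 to 0.22) turned, and without young-SP replicate 2, Slc38a10 (-0.0055, -0.0055 to 0.069). The cause was not tested. The count over the 5 lists, 40, lay between 31 and 46 in all alternatives. With 2 aged-SP libraries, differences of low genes such as Slc1a2 and Slc36a2 were not resolved beyond their wide intervals.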
